A study of Mus musculus with 10 samples.

Results

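The ligands and receptors that steer growing axons were followed in the caudal brain of newborn mice with and without the transcription factor Nkx2.2. The set was a list of 48 genes of the semaphorin, neuropilin, netrin, slit, robo and ephrin systems, chosen by name, and every probe set that the platform's annotation assigns to one of them was taken. Of the 48 genes, 47 had a probe set, and Ephb2 was not analysed here. The 47 genes were read by 115 of the 45037 probe sets that are not controls. When each gene was represented by its brightest probe set (by the mean of the 10 arrays), they made up 47 of 18193 genes, 31 of them ligands and 16 receptors. Expression was measured on 1 array for each of 10 mice of the C57BL/6 strain aged 1.5 to 2 days, to ask which transcripts differ when Nkx2.2 is missing. The control group was 5 wild-type littermates, numbered 14, 15, 16, 18 and 21, and the other group was 5 Nkx2.2-/- mice, numbered 11, 12, 22, 29 and 43. RNA was taken from the pons, the medulla and the upper part of the spinal cord, cut out of 20 µm sections, so each value is a mean over all cell types of that piece. How the Nkx2.2 allele was made, and the sex and litter of each mouse, are not given in the sources used here.

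Axons find their targets by reading attractive and repulsive proteins laid down by the tissue they cross. Netrins made at the ventral midline attract axons that carry Dcc and repel those that also carry Unc5 receptors, while slits repel axons through Robo receptors. Secreted semaphorins act through neuropilins and plexins, membrane-bound semaphorins mostly through plexins alone, and ephrins signal to Eph receptors where cells touch. The same families guide migrating glial precursors, and Nkx2.2 acts in ventral progenitors next to the midline source of netrin and in cells of the oligodendrocyte lineage.

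The Nkx2-2 transcript itself checked the labels. It lay between 6.42 and 6.88 on the log2 scale in the wild-type mice and between 4.24 and 4.73 in the Nkx2.2-/- mice, a difference of -2.05 (limma, adjusted p = 3.50e-05). The log2 values ran from 3.52 to 13.2, with array medians from 5.07 to 5.12. Of the markers of the dissected region, 6 hindbrain Hox genes had mean signals between 6.04 and 6.76 on the 10 arrays. Mean signals of 9 markers of cerebellar cells were between 7.68 and 8.16 in wild-type mice 18 and 21 and Nkx2.2-/- mouse 11, and between 6.82 and 7.11 in the other 7 mice. For Gapdh, the control probe set at the 3 prime end exceeded that at the 5 prime end by 2.13 in wild-type mouse 14 and by 3.78 in Nkx2.2-/- mouse 43, against -0.32 to 0.13 elsewhere. Mean signals of 7 markers of dividing cells ran from 5.95 to 6.71 in wild-type and from 5.45 to 6.11 in Nkx2.2-/- mice, and those of 8 spinal cord Hox genes from 5.10 to 5.28 and from 5.21 to 5.80. In Nkx2.2-/- mice all 7 of the dividing cell markers were lower in sign and all 8 of the Hox genes higher. A fit with either signal as a covariate therefore cannot fully separate that signal from genotype.

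None of the 47 guidance genes differed between the genotypes past the threshold. The limma fit with Benjamini-Hochberg adjustment at 0.05 called 0 of 47 members, against 0.0605% of all genes (11 of 18193). Their differences, Nkx2.2-/- minus wild type, ran from -0.19 for Epha5 to 0.17 for Efna3, with a median of -0.024 beside -0.0042 over all genes. At an unadjusted p under 0.05, 1 member was lower, Epha5, beside 2.71% of all genes, and 0 members were higher, beside 0.517%. The exact permutation test over the 10 mice gave 1 member a p under 0.05, again Epha5. That test used the same values as the limma fit, and no share of all genes was taken for it. In 0 of 47 members did the 5 values of one genotype all lie on one side of the 5 of the other, which held for 0.682% of all genes. In bulk tissue, fewer cells of a type and less RNA per cell cannot be told apart, and opposite differences in separate cell types would cancel.

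The intervals show how large a difference these 10 mice leave room for. The 95% intervals of all 47 members lay between -0.47, the lower bound for Unc5c, and 0.43, the upper bound for Efna3. All 47 thus stayed within 0.5 on the log2 scale on either side of 0, as did 96.3% of all genes. A narrower band of 0.25 on either side held the intervals of 23 members (48.9%), against 65.9% of all genes. The median interval reached 0.195 on either side of its estimate for members and 0.149 for all genes, and the median SD between mice was 0.139 in wild type and 0.156 in Nkx2.2-/- mice for members, against 0.0963 and 0.110 for all genes. The guidance genes therefore varied more between mice of 1 genotype than the median gene, and 36 of the 47 had a mean signal above that of the median gene. By sign, 29 members were lower and 18 higher, but the split moved to 23 lower after renewed quantile normalization, to 22 after a shift of the arrays to a common median and to 21 without the 3 mice of high cerebellar marker signal.

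**Figure D1:**
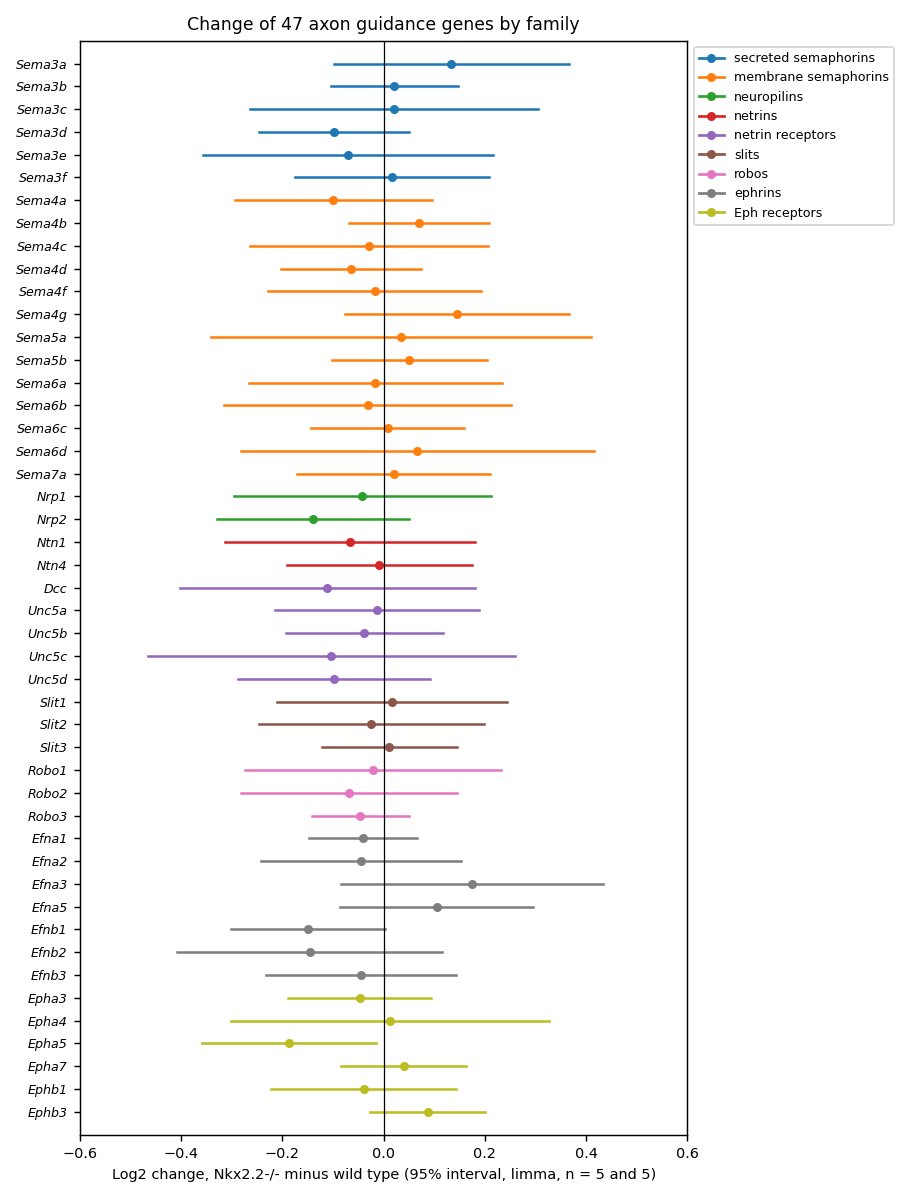
Log2 difference (Nkx2.2-/- minus wild type, x axis) of each of the 47 genes (y axis), coloured by family; points are estimates and bars 95% intervals of the limma fit over 5 and 5 mice. Only the interval of Epha5 (-0.36 to -0.02) leaves out 0 before adjustment, and all intervals lie between -0.47 and 0.43.

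The promoter windows of the members were searched for TNAAGTG, the core recognised by NK2-class homeodomain proteins such as Nkx2.2, on both strands in the 250 bases before each RefSeq start (assembly GRCm38.p6). It was the only motif searched. A window was given for 39 of the 47 genes, 54 windows in all, and 3 of them (5.56%) held the motif, against 10.1% of the 32851 windows of this length in the table. The genes were Efna3 (chr3:89322940-89323189, minus strand), Sema3d (chr5:12382916-12383165, plus strand) and Sema4c (chr1:36558382-36558631, minus strand). They are shown, 5′ to 3′ on the strand of the gene, because they are the only members with a match. Capitals mark the motif, which lies on the gene's own strand in Efna3 and Sema3d and on the opposite strand in Sema4c.
Efna3: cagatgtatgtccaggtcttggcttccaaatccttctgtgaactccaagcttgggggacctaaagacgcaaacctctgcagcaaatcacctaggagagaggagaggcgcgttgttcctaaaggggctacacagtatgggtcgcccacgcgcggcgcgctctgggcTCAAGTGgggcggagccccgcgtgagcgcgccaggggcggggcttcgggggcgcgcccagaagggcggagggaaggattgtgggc
Sema3d: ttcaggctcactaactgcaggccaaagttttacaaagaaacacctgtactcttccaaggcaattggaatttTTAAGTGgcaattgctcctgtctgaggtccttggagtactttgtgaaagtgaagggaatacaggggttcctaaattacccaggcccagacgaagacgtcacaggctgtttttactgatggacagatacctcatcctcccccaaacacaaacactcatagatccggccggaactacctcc
Sema4c: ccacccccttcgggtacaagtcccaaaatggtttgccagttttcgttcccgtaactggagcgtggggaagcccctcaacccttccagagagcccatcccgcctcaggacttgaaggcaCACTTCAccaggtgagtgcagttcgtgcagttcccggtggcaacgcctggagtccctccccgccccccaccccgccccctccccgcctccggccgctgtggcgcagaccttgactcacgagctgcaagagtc
The capitals begin at base -85 in Efna3, -179 in Sema3d and -132 in Sema4c, where -1 is the last base before the start. A match describes letters and is not a binding site, and a window without one says nothing about Nkx2.2. The 3 genes differed by 0.17, -0.098 and -0.029, none past the threshold, and the median over the members with a window and no match was -0.022.

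Among the 6 secreted semaphorins, repellents and attractants released into the tissue, 0 of 6 passed the test, and 2 were lower and 4 higher in sign, with a median difference of 0.018. The split turned to 4 lower and 2 higher without mutant 11 (median -0.015), without mutant 22 (-0.0079) and without the 3 mice of high cerebellar marker signal (-0.013), and the median was -0.022 without mutant 29. The gene of lowest p was Sema3d, a ligand that acts on neural crest and vascular cells as well as axons. It lay at 4.89, 4.93, 4.98, 5.0 and 4.92 in wild-type mice 14, 15, 16, 18 and 21, and at 4.86, 4.86, 4.60, 4.95 and 4.96 in Nkx2.2-/- mice 11, 12, 22, 29 and 43. The groups overlapped, and mouse 22 alone was low. The difference was -0.098 (SE 0.0672; limma p = 0.175; exact permutation p = 0.167), and it was -0.035 without mouse 22. Sema3a, which repels axons through neuropilin 1, differed by 0.13 (95% interval -0.098 to 0.37). It spanned 6.78 to 6.92 in wild-type mice and 6.67 to 7.34 in Nkx2.2-/- mice, so the mutants lay on both sides of the controls. The Sema3a difference was 0.047 without mutant 43 and 0.21 without mutant 11. Sema3f, a ligand of neuropilin 2, differed by 0.016 (-0.18 to 0.21), and Sema3e, which binds Plxnd1 directly, by -0.070 (-0.36 to 0.22). Sema3b differed by 0.021 (-0.10 to 0.15) and Sema3c by 0.021 (-0.26 to 0.31). Sema3b stood within 5.09 to 5.13 in the wild-type mice and spread from 4.99 to 5.27 in the mutants.

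The 2 neuropilins, the ligand-binding receptors of secreted semaphorins, were both lower in sign in the chosen probe sets, and 0 of 2 passed. Nrp2 lay at 7.96, 8.04, 7.63, 7.89 and 7.88 in the wild-type mice and at 7.72, 7.68, 7.87, 7.88 and 7.56 in the Nkx2.2-/- mice, in the order of mice used for Sema3d. The groups overlapped, with wild-type mice 16 and 21 among the mutants. The difference was -0.14 (95% interval -0.33 to 0.051, limma p = 0.135, exact permutation p = 0.175). Nrp2 differed by -0.20 without control 16 and by -0.18 with array weights. The unadjusted limma p was 0.0219 and 0.0252 there, and the adjusted p 0.9998 and 0.455, with no exact permutation test run. With the mean of its probe sets the Nrp2 difference was -0.058. Nrp1 differed by -0.042 (-0.30 to 0.21) in its brightest probe set, while its other probe sets gave 0.079, 0.070 and 0.22. With the mean of each gene's probe sets, 1 neuropilin was lower and 1 higher.

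Of the 13 semaphorins held in the membrane, 0 passed the test, with 6 lower, 7 higher and a median of 0.0076. Under renewed quantile normalization the split was 2 lower and 11 higher, and with the spinal cord Hox signal as a covariate, without control 16 or without mutant 29 it was 8 lower and 5 higher, with medians of -0.0054, -0.010 and -0.012. Sema4g, a class 4 semaphorin, had the lowest p of the family. It lay at 8.68, 8.5, 8.26, 8.64 and 8.56 in the wild-type mice and at 8.4, 8.62, 8.66, 8.89 and 8.78 in the Nkx2.2-/- mice. The ranges overlapped, with mutants 29 and 43 above every control. The difference was 0.14 (SE 0.1002, 95% interval -0.076 to 0.37, limma p = 0.177, exact permutation p = 0.246). It was 0.078 without control 16 and 0.039 with the spinal cord Hox covariate. Larger values came after renewed quantile normalization (0.17), without mutant 11 (0.21) and without the 3 mice of high cerebellar marker signal (0.26). Their unadjusted limma p was 0.016, 0.0418 and 0.0481, and their adjusted p 0.9999, 0.9999 and 0.9998. The other class 4 genes gave -0.099 for Sema4a (-0.29 to 0.096), where mutant mouse 11 stood alone at 6.45, 0.070 for Sema4b (-0.068 to 0.21), -0.029 for Sema4c and -0.018 for Sema4f.

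Sema4d, the plexin B1 ligand found on immune cells and on oligodendrocytes, was the one member with a probe set that separated the genotypes. That was 1 of 115 probe sets, near the 0.757% of all probe sets that did so. Probe set 1434596_at lay at 5.32, 5.55, 5.36, 5.37 and 5.42 in the wild-type mice and at 5.23, 5.16, 5.26, 5.25 and 5.22 in the Nkx2.2-/- mice. Every mutant was below every control. The difference was -0.18 (SE 0.0464; 95% interval -0.28 to -0.077), with an exact permutation p of 0.00794, the smallest that 5 against 5 mice allow, and a limma p of 0.00273. Adjusted over all probe sets by Benjamini-Hochberg the limma p was 0.9997. The brightest Sema4d probe set gave -0.065 (-0.20 to 0.073 on the gene level) and the third gave 0.10 (-0.033 to 0.23), and neither separated the groups. Of the myelin markers, 6 of 7 measured passed the test as lower, and their mean signal ran from 6.88 to 7.26 in wild-type and from 5.91 to 6.18 in Nkx2.2-/- mice. Their part in the Sema4d values was not tested. Plxnb1, which encodes the receptor, differed by -0.0082 (-0.16 to 0.14).

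Sema5a, a ligand of plexin B3 that can attract or repel, differed by 0.034, with an interval from -0.34 to 0.41 that was among the widest of the members. Its values ran from 6.00 to 6.58 in wild-type and from 5.81 to 6.83 in Nkx2.2-/- mice, with mouse 14 highest among the controls and mouse 43 highest among the mutants. Sema5b differed by 0.051 (-0.10 to 0.20). In class 6, whose members signal through plexin A receptors, Sema6a gave -0.016 (-0.27 to 0.23), Sema6b -0.032 (-0.32 to 0.25), Sema6c 0.0076 (-0.14 to 0.16) and Sema6d 0.066 (-0.28 to 0.41). Sema7a, which is anchored by a lipid and promotes axon growth through integrins, gave 0.020 (-0.17 to 0.21).

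Both netrins were lower in sign, and 0 of 2 passed. Ntn1, the midline attractant, lay at 8.10, 7.59, 7.74, 7.89 and 8.11 in the wild-type mice and at 7.93, 7.62, 8.02, 7.82 and 7.71 in the Nkx2.2-/- mice. The mutants fell inside the range of the controls. The difference was -0.066 (SE 0.112; 95% interval -0.31 to 0.18; limma p = 0.566; exact permutation p = 0.603). Its sign turned, to 0.014, when mice 14 and 43 were left out. The second Ntn1 probe set gave 0.058 (-0.012 to 0.13, limma p = 0.0941, exact permutation p = 0.0159). That probe set was dim, at 4.56 to 4.68 over all mice, below the array medians of 5.07 to 5.12. Ntn4, a netrin of basement membranes, differed by -0.0089 (-0.19 to 0.17). After renewed quantile normalization 1 netrin was lower and 1 higher. The floor plate makes Ntn1, and 6 measured floor plate markers, among them Shh and Foxa2, differed by 0.0046 to 0.11 with 0 of 6 past the test. Only 2 of these 6 had a mean signal above that of the median gene, and Foxa2 was not among them.

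All 5 netrin receptors were lower in sign, with a median of -0.098, and 0 of 5 passed; after renewed quantile normalization or the shift to a common median 4 were lower and 1 higher. With the dividing cell signal, itself lower in sign in Nkx2.2-/- mice, as a covariate 1 was lower and 4 higher, with a median of 0.11. Unc5d, a repulsive netrin receptor, had the lowest p of the family. It lay at 7.38, 7.54, 7.19, 7.35 and 7.36 in the wild-type mice and at 7.08, 7.31, 7.10, 7.38 and 7.45 in the Nkx2.2-/- mice. Mutants 11 and 22 were below every control, and the others overlapped with them. The difference was -0.098 (95% interval -0.29 to 0.093; limma p = 0.281; exact permutation p = 0.317). Unc5a gave -0.013 (-0.21 to 0.19) and Unc5b, which also guides vessels, -0.038 (-0.19 to 0.12).

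Dcc and Unc5c, the attractive and a repulsive netrin receptor, were highest in the mice of highest cerebellar marker signal. Dcc lay at 8.05, 8.01, 7.76, 8.54 and 8.37 in the wild-type mice and at 8.19, 7.94, 7.91, 8.14 and 7.99 in the Nkx2.2-/- mice. Unc5c lay at 7.38, 7.53, 7.28, 8.11 and 7.98 in the wild-type mice and at 7.89, 7.44, 7.41, 7.54 and 7.48 in the Nkx2.2-/- mice. For both genes the 3 highest mice were wild type 18, wild type 21 and mutant 11, whose cerebellar marker signal was also the highest. Wild type 18 and mutant 11 had the highest dividing cell signal too, at 6.71 and 6.11. The part of either signal in these values was not tested. Sema4c and Ntn4 had the same 3 mice at the top, so 4 of 47 members did (8.51%), against 2.06% of all genes. These mice are 2 controls and 1 mutant, so leaving them out removes the highest values of both genes, mostly from the controls. Dcc differed by -0.11 (95% interval -0.40 to 0.18) over all mice, by -0.034 with the cerebellar marker signal as a covariate, by 0.18 with the dividing cell signal as a covariate and by 0.054 without the 3 mice. Unc5c differed by -0.10 (-0.47 to 0.26), by 0.0018 with the cerebellar and 0.31 with the dividing cell covariate and by 0.072 without the 3 mice. With the dividing cell covariate the unadjusted limma p was 0.231 for Dcc and 0.0797 for Unc5c. All 7 dividing cell markers were lower in sign in Nkx2.2-/- mice, so those fits cannot separate that signal from genotype. Without them, 2 netrin receptors were lower and 3 higher in sign, with a median of 0.0048, and leaving out wild-type mouse 18 alone gave a median of 0.0030.

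**Figure D2:**
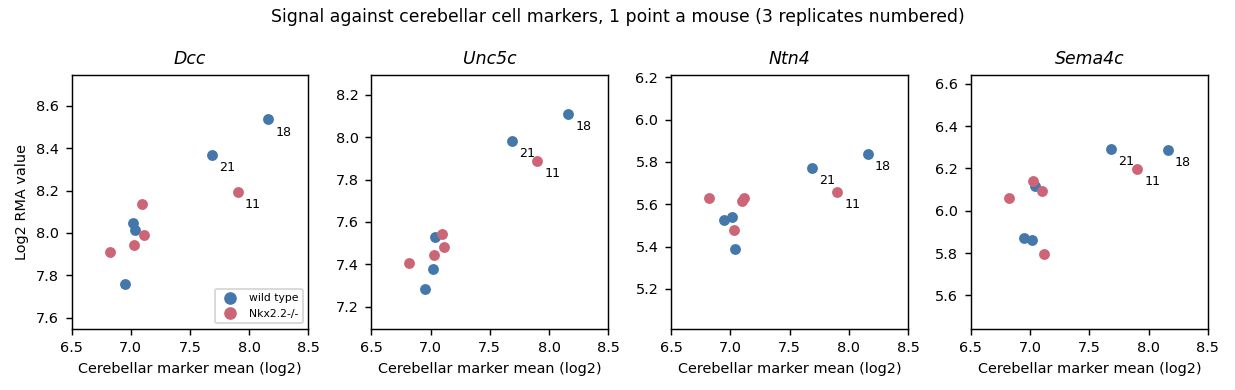
Log2 RMA value (y axis) of Dcc, Unc5c, Ntn4 and Sema4c against the mean log2 signal of 9 cerebellar cell markers (x axis), 1 point a mouse, coloured by genotype. Wild-type mice 18 and 21 and Nkx2.2-/- mouse 11, at 7.68 to 8.16 on the x axis, hold the 3 highest values of each gene.

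The slits and robos, the repellent and receptor pair that keeps axons from crossing the midline again, did not separate the genotypes in any gene when all mice were kept. Among the 3 slits 0 passed, and 1 was lower and 2 higher in sign, with a median of 0.011, while all 3 were higher after a shift of the arrays to a common median. All 3 were lower with array weights (median -0.098), with the spinal cord Hox signal as a covariate (-0.016), without control 16 (-0.0059) and without mutant 29 (-0.039). Slit2, the slit of lowest p, lay at 7.22, 6.93, 6.91, 7.02 and 6.90 in the wild-type mice and at 6.92, 6.80, 6.78, 7.09 and 7.27 in the Nkx2.2-/- mice. The highest control was mouse 14, the highest mutant was mouse 43, and the groups overlapped. The difference of -0.024 (SE 0.101; 95% interval -0.25 to 0.20; limma p = 0.815; exact permutation p = 0.825) was 0.0066 after that shift and 0.032 without control mouse 14. Slit1 gave 0.016 (-0.21 to 0.24) and Slit3 0.011 (-0.12 to 0.14).

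All 3 robos were lower in sign, with a median of -0.046, and 0 of 3 passed; after the shift to a common median 2 were lower and 1 higher. Robo3, which lets commissural axons cross the midline, lay at 4.59, 4.71, 4.61, 4.66 and 4.65 in the wild-type mice and at 4.51, 4.64, 4.56, 4.62 and 4.66 in the Nkx2.2-/- mice. The groups overlapped, with mutants 11 and 22 below every control. The difference was -0.046 (95% interval -0.14 to 0.050, limma p = 0.313, exact permutation p = 0.246), and this interval was the narrowest of all members. Robo3 lay below the array medians of 5.07 to 5.12 in every mouse. The values carry no detection call, and whether the narrow interval goes with a lack of signal was not tested. The repulsive receptors Robo1 and Robo2 gave -0.021 (-0.27 to 0.23) and -0.068 (-0.28 to 0.15). The mean Robo2 signal was below that of the median gene. Control 14 was low at 4.67, and without it every mutant was below every other control. The difference was then -0.16 (unadjusted limma p = 0.0182, adjusted p = 0.9984, no exact permutation test run). The Robo2 groups also did not overlap without mice 14 and 43 (-0.15). Without the 3 mice of high cerebellar marker signal Robo2 differed by 0.065.

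Among the 7 ephrins, the membrane-bound ligands of Eph receptors, 5 were lower and 2 higher in sign, with a median of -0.045, and 0 passed; without the 3 mice of high cerebellar marker signal 3 were lower and 4 higher. Efnb1, a transmembrane ephrin, had the lowest p. It lay at 6.34, 6.56, 6.17, 6.35 and 6.39 in the wild-type mice and at 6.20, 6.13, 6.28, 6.29 and 6.17 in the Nkx2.2-/- mice. Control mouse 16 sat among the mutants, and the other 4 controls were above all 5 mutants. The difference was -0.15 (SE 0.0685; 95% interval -0.30 to 0.0019), with a limma p of 0.0524 and an exact permutation p of 0.0635. Control mouse 15, the highest, also had the highest mean signal of 8 meningeal fibroblast markers, 7.92 against 6.53 to 7.44 in the other 9 mice. Efnb1 differed by -0.099 without that mouse and by -0.12 with the meningeal signal as a covariate. It differed by -0.22 with array weights, by -0.20 without control 16 and by -0.17 without mutant 29 (unadjusted limma p = 0.0071, 0.00818 and 0.0467; adjusted p = 0.371, 0.831 and 0.9999; no exact permutation test was run for these).

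Efna3, an ephrin anchored by a lipid, had the largest positive difference of the members over all 10 mice. It lay at 7.08, 7.34, 7.13, 7.11 and 7.30 in the wild-type mice and at 7.04, 7.40, 7.56, 7.67 and 7.16 in the Nkx2.2-/- mice. Mutants 12, 22 and 29 were above every control, and mutant 11 was below every control. The difference was 0.17 (95% interval -0.085 to 0.43; limma p = 0.167), and the second probe set gave 0.16 (limma p = 0.0404, adjusted p = 0.9997; exact permutation p = 0.0714). In the brightest probe set the difference was 0.097 without mutant 29 and 0.26 without mutant 11. Efna5, a repellent in topographic maps, gave 0.10 (-0.087 to 0.30), and Efnb2, which also patterns arteries, -0.15 (-0.41 to 0.12). The rest were closer to 0, with Efna1 at -0.041, Efna2 at -0.045 and Efnb3, a midline barrier to corticospinal axons, at -0.045 (-0.23 to 0.14).

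The 6 measured Eph receptors, tyrosine kinases that read ephrins, were 3 lower and 3 higher in sign, with a median of -0.013 that turned to 0.0071 after renewed quantile normalization, and 0 of 6 passed after adjustment. Epha5, a receptor of A-type ephrins, lay at 8.96, 8.72, 8.59, 8.60 and 8.73 in the wild-type mice and at 8.43, 8.64, 8.42, 8.54 and 8.63 in the Nkx2.2-/- mice. Controls 14, 15 and 21 were above every mutant, and controls 16 and 18 lay among the mutants. The means were 8.72 ± 0.152 and 8.53 ± 0.105 (SD, 5 mice each), and the difference was -0.19 (SE 0.0779; 95% interval -0.36 to -0.015). The limma p was 0.0354, which adjustment over all genes raised to 0.9996, and the exact permutation p was 0.0476. Without control mouse 14 the difference was -0.13 (unadjusted limma p = 0.0774; no exact permutation test was run without it). The unadjusted limma p also rose above 0.05, to between 0.0553 and 0.0821, when control 15 or 21 or mutant 11, 22 or 29 was left out. It fell, to between 0.0216 and 0.0287, when control 16 or 18 or mutant 12 or 43 was left out. The other Epha5 probe sets gave -0.11, -0.012 and -0.019.

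Ephb3, a receptor of B-type ephrins, spanned 6.37 to 6.42 in the wild-type mice and 6.31 to 6.57 in the Nkx2.2-/- mice. Its mutants 11, 12, 22 and 29 were above every control and mutant 43 was below them, and the difference was 0.087 (95% interval -0.026 to 0.20; limma p = 0.118; exact permutation p = 0.0952). Leaving out mutant 43, the only mouse that made the groups overlap, necessarily separated them. The difference was then 0.13 (unadjusted limma p = 0.0091, adjusted p = 0.964, no exact permutation test run without it). Without both mice of high Gapdh difference, 14 and 43, it was 0.14. Epha4, a repulsive receptor of corticospinal and spinal circuits, gave 0.013 (-0.30 to 0.33). Epha3 gave -0.047 (-0.19 to 0.095), Epha7 0.040 (-0.085 to 0.16) and Ephb1 -0.040 (-0.22 to 0.14).

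**Figure D3:**
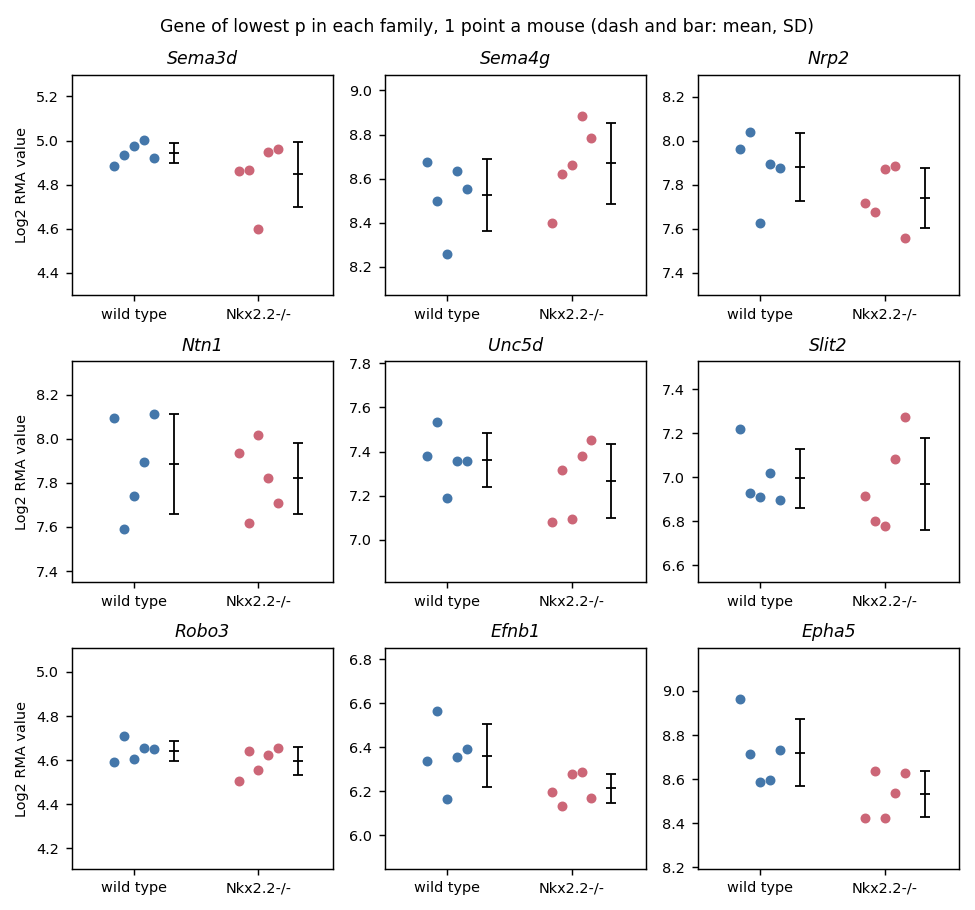
Log2 RMA value (y axis) in each mouse for the gene of lowest p in each of the 9 families, wild type in blue and Nkx2.2-/- in red, with mean and SD beside the points (5 mice a group; all panels span the same number of log2 units). The groups overlap in every panel, although 4 of 5 controls lie above all mutants for Efnb1 and 3 of 5 for Epha5.

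Taken by family in each mouse, the genotypes overlapped in all 9 families. The mean over the 5 netrin receptors, relative to the wild-type mean, ran from -0.20 to 0.22 in wild-type and from -0.14 to 0.036 in Nkx2.2-/- mice. The neuropilin mean ran from -0.15 to 0.18 and from -0.27 to 0.054. For the 13 membrane semaphorins the ranges were -0.10 to 0.089 and -0.10 to 0.10, and for the 7 ephrins -0.12 to 0.13 and -0.12 to 0.10. In every family the range within a genotype was wider than the distance between the genotype means. By role, 16 ligands were lower and 15 higher (median -0.0089), and 13 receptors lower and 3 higher (median -0.044), beside 53% of all genes lower. After the shift to a common median 11 receptors were lower and 5 higher (median -0.013), and without the 3 mice of high cerebellar marker signal 9 and 7 (median -0.012).

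**Figure D4:**
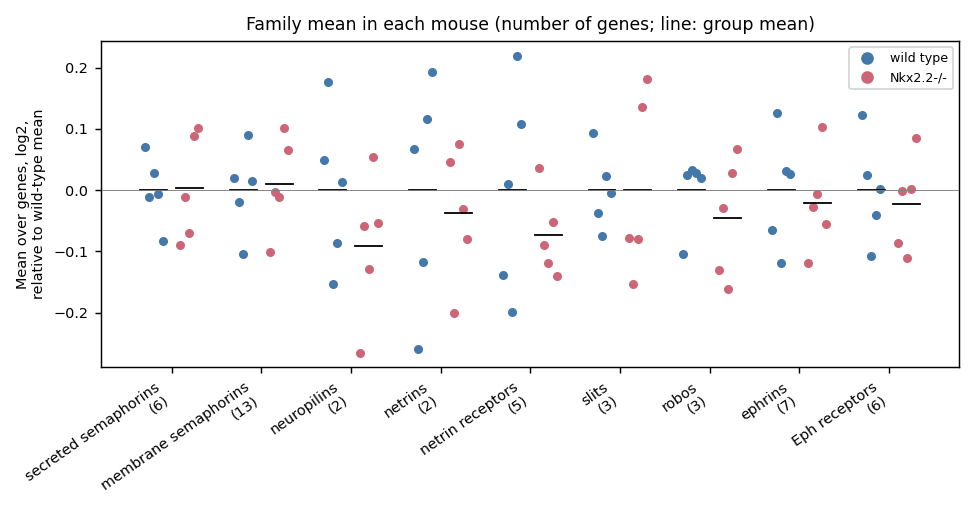
Mean over the genes of each family in each mouse, in log2 units relative to the wild-type mean (y axis), by family with its number of genes (x axis); dashes are genotype means. The netrin receptors run from -0.20 to 0.22 in wild-type mice and from -0.14 to 0.036 in Nkx2.2-/- mice, and all 9 families overlap.

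Reading every probe set on its own gave the same picture. The limma fit over all probe sets called 0 of 115, against 0.0511% of all probe sets, and the 115 intervals all lay within 0.5 on either side of 0. At an unadjusted p under 0.05, 3 were lower (of Sema4d, Epha5 and Efnb1), beside 2.35% of all probe sets, and 1 was higher (of Efna3), beside 1.08%. The groups did not overlap in 1 of 115, that of Sema4d, beside 0.757%. Of the 37 genes with several probe sets, 17 had all estimates of 1 sign and 20 had both signs. Among those with both signs, Epha3 spanned -0.17 to 0.026, Epha7 -0.15 to 0.040, Epha4 -0.047 to 0.12 and Sema5a -0.13 to 0.053. Slit2 spanned -0.084 to 0.065, Sema3e -0.070 to 0.047, Sema3a -0.031 to 0.13 and Efna1 -0.041 to 0.083. Both signs were also found for Sema3b, Sema3c, Sema3f, Sema4b, Sema4f, Ntn4, Robo1, Efna2 and Efna5. All 9 probe sets of the netrin receptors were lower in sign.

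**Figure D5:**
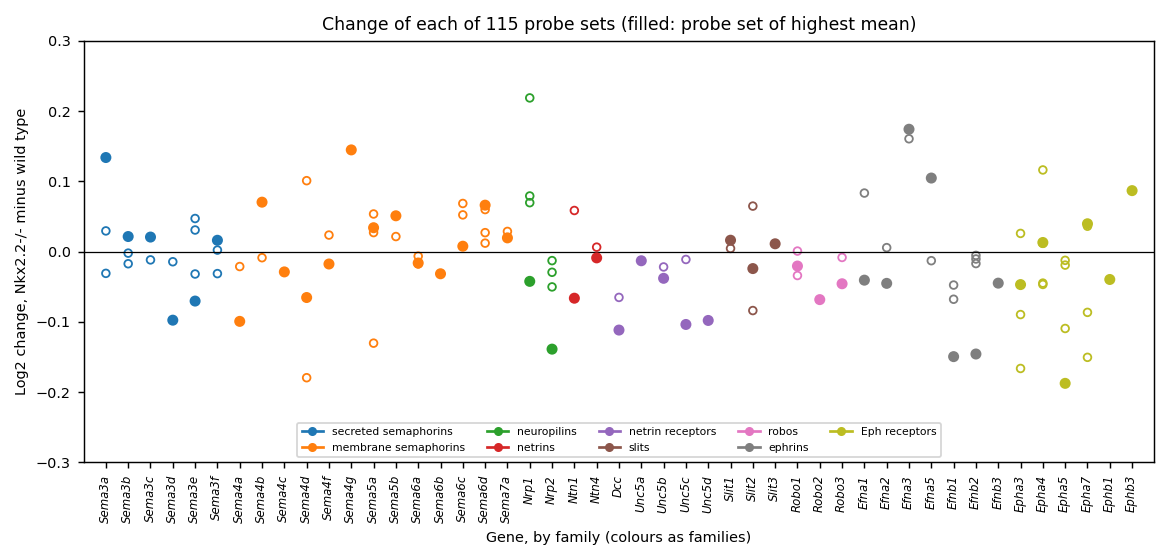
Log2 difference (Nkx2.2-/- minus wild type, y axis) of each of the 115 probe sets, by gene (x axis) and coloured by family; filled points are the brightest probe set of a gene and open points the others. The probe sets of 1 gene often lie on both sides of 0, as in Sema4d (-0.18 to 0.10) and Nrp1 (-0.042 to 0.22).

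The mice with a dim 5 prime Gapdh signal, control 14 and mutant 43, held the highest value of their genotype together in 8 of 47 members (17.0%, against 18.5% of all genes). These were Sema3c, Sema3e, Sema5a, Sema6d, Slit2, Robo1, Epha4 and Epha7. They held the lowest value together in 7 members (14.9%, against 11.04%): Sema3f, Sema4c, Sema6b, Sema6c, Sema7a, Unc5a and Unc5b. Each genotype has 1 such mouse, and leaving both out still called 0 of 47.

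The other genes of these pathways were read from 5 lists of 81 measured genes, of which 1 passed the test as lower and 0 as higher, with a median of 0.0015. The gene was Plxnb3, the plexin B3 receptor of Sema5a, which in the brain is expressed in the oligodendrocyte lineage. It lay at 5.96, 6.02, 5.95, 5.77 and 6.08 in the wild-type mice and at 5.40, 5.42, 5.31, 5.25 and 5.31 in the Nkx2.2-/- mice. Every mutant was below every control, with a difference of -0.62 (SE 0.0616; 95% interval -0.76 to -0.48; limma adjusted p = 0.00303). Its second probe set gave -0.34 (adjusted p = 0.128 over probe sets). With the spinal cord Hox signal as a covariate the difference was -0.57 (limma adjusted p = 0.127), and with the dividing cell signal -0.68 (limma adjusted p = 0.0701). Both signals themselves differed in sign between the genotypes, so these fits cannot separate them from genotype. The myelin markers fell alongside, as given for Sema4d, and their part was not tested.

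The remaining 8 plexins, the shared receptors of semaphorins, included 6 lower and 2 higher in sign and 0 past the test, with Plxnc1 at -0.15 and Plxna2 at 0.13. Of 18 co-receptors and modifiers 0 passed, and Nrcam, a cell adhesion molecule that partners with neuropilin 2, had the lowest p at -0.21 (95% interval -0.40 to -0.019; limma p = 0.0342, adjusted p = 0.9996; exact permutation p = 0.0556). Fam3c was next at -0.088. Of 27 measured intracellular mediators 0 passed, with Rock1, a kinase that acts on the cytoskeleton, at -0.14 and its activator Rhoa at -0.25 (-0.57 to 0.077). Of 12 Hedgehog and Wnt genes that also guide axons 0 passed, with Vangl2 at 0.082 and Smo at -0.12. Of 15 further members of the same ligand and receptor families 0 passed, with Ephb4 at -0.061 and Epha10 at 0.060. The 8 neuronal markers, which stand for the cells that carry most of these receptors, gave 0 of 8 past the test, a median of 0.011 and mean signals from 9.77 to 9.92 in wild-type and from 9.65 to 10.08 in Nkx2.2-/- mice.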

How the data were processed

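RNA of the pons, medulla and upper spinal cord of 5 wild-type and 5 Nkx2.2-/- mice was read on 1 array each. The values the authors deposited are on the log2 scale. The submitters' processing notes name RMA, without a version, as the tool behind them. RMA subtracts background, gives all arrays 1 distribution and condenses each probe set's probes into 1 value. It gives no detection call and can compress differences between dim probe sets, which was not measured here, and the number of arrays limits the precision. Groups come from the sample titles. No batch is given in the sources used here, and p-values measure the spread between mice, some of which may share a litter.

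The 64 control probe sets among 45101 were not tested. The platform annotation gave 1 gene symbol to 34945 of the rest and several to 932, and left 9160 unnamed. No member's probe set had several symbols. All 47 measured members matched the RefSeq table of GRCm38.p6 by Entrez number, with 0 symbols changed. Genotypes were compared over all genes, and over all probe sets, by limma 3.58.1 (lmFit, eBayes) in R 4.3.3, with no covariate and Benjamini-Hochberg adjustment at 0.05; the code was tested on simulated data. Single genes also had an exact two-sided permutation test. Motifs were counted in the 250 bases before RefSeq starts. Tables were prepared in pandas 2.3.3 on Python 3.11.15, and figures drawn in matplotlib 3.10.9.

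The members and all gene and marker lists were chosen with earlier results of these data known. Full values are given for Nkx2-2, for members with an unadjusted p under 0.05 and for the gene of lowest p in each family, and from each pathway list the genes past the threshold or else the 2 of lowest p are named. Other probe sets are named where their sign differs or their unadjusted p is under 0.05. Dcc, Unc5c, Efna3, Ephb3 and the plexins, floor plate and neuronal genes other than Plxnb3 were described in more detail after their values were seen. The alternatives were quantile normalization again, a common array median, leaving out genes below the median signal, other rules for the probe set of a gene, another variance model, array weights, covariates for the Gapdh difference, cerebellar markers and spinal cord Hox genes, and leaving out arrays. Covariates for meningeal and dividing cell markers, and leaving out the 3 arrays of high cerebellar marker signal, were added after seeing the data.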

Additional observations from a re-analysis of the deposited data

Results flagged for a closer look

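In 7 of 96 groups of 5 mice (47 members and Nkx2-2, each in both genotypes), 1 mouse stood so far from its group that its gap to the nearest other value took up more than 0.71 of the group's range. Chance gives this in about 1 of 20 groups. Among the Nkx2.2-/- mice, Sema3d was low in mouse 22 at 4.60, against 4.86 to 4.96 in the others. Sema3f was low in mouse 43 at 7.38, against 7.76 to 7.87. Sema4a was low in mouse 11 at 6.45, against 6.83 to 6.97. Ntn4 was low in mouse 12 at 5.48, against 5.62 to 5.66. Unc5c was high in mouse 11 at 7.89, against 7.41 to 7.54, and that mouse also had the highest cerebellar marker signal of its genotype. Among the wild-type mice, mouse 14 was high for Slit1 at 7.27, against 6.95 to 7.01, and for Nkx2-2 at 6.88, against 6.42 to 6.51; its 5 prime Gapdh signal was dim. The part of these array differences was not tested.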

How the results depend on the processing

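No member was called in any of the 24 alternatives over genes or the 22 over probe sets; the lowest adjusted p of a member was 0.371 (Efnb1, with array weights). The count of members lower at an unadjusted p under 0.05, 1 as reported, was 0 with a common array median, without genes below the median signal, with a gene's probe sets averaged, with the trend and robust prior, with the meningeal covariate and without the 3 arrays of high cerebellar signal. It was 2 with array weights (beside 6.56% of all genes), without mice 14 and 43 of high Gapdh difference (2.97%) and with the spinal cord Hox (3.76%) or dividing cell covariate (1.98%). With 1 mouse left out that count was 0 to 3, beside 1.89% to 3.91% of all genes. The count higher, 0 as reported, was 1 after quantile normalization (Sema4g, beside 1.39% of all genes), with array weights (2.89%) and without mice 14 and 43 (0.77%). It was also 1 with the Gapdh (0.726% of all genes) or dividing cell covariate (1.02%) and without the 3 cerebellar arrays (Sema4g, 0.868%). With 1 mouse left out it was 0 to 3, beside 0.368% to 1.03% of all genes. Members whose groups do not overlap, 0 as reported, numbered 1 with the probe set of largest variance (Sema4d). There was also 1 without the 3 cerebellar arrays (Sema4b), and 2 without mice 14 and 43 (Robo2 and Ephb3). With 1 mouse left out there were 0 to 1 (Robo2, Efnb1 or Ephb3). The share of all genes without overlap was not taken for these settings. The median difference of the members was 0.023 without the 3 cerebellar arrays, and -0.045 to 0.0090 with 1 mouse left out. The pathway lists had 0 genes called, not 1, without genes below the median signal (Plxnb3 is then not among the genes), and with the spinal cord Hox or dividing cell covariate.

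Signs turned for Ntn1 (0.014 without mice 14 and 43) and Slit2 (0.0066 with a common median, 0.0071 with the meningeal covariate and -0.10 to 0.032 with 1 mouse left out). They also turned for Dcc (0.18 with the dividing cell covariate, 0.054 without the 3 cerebellar arrays). Unc5c turned too (0.0018 with the cerebellar covariate, 0.31 with the dividing cell covariate, 0.072 without the 3 cerebellar arrays and -0.20 to 0.0098 with 1 mouse left out). The cause was not tested. Epha5 stayed lower in all 25 alternatives (-0.28 to -0.082), and Sema4d probe set 1434596_at in all 22 (-0.21 to -0.14, lowest limma adjusted p 0.397). Some of these could not change the estimate: the trend and robust prior, leaving out dim genes and, for Epha5, the permutation test. The fits without 1 mouse share the remaining mice, so these counts are not separate checks. Without genes below the median signal 36 members remained, and Nkx2-2, Sema3d and Robo3 had no value there. The exact permutation test, adjusted over all genes, calls nothing at 5 against 5. No paired analysis was possible because the litter of each mouse is not given.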

Other observations

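The mice differed in how often they held the highest or lowest value of their genotype among the 47 guidance genes. Mutant mouse 43 was highest in 18 members and lowest in 12, and control mouse 14 was highest in 14 and lowest in 13. Mutant mouse 29 was highest in 12 members and lowest in 0. Control mouse 16 was highest in 1 and lowest in 16, and mutant mouse 11 was highest in 8 and lowest in 15. Over all genes, mouse 43 held an extreme in 56.2% and mouse 14 in 50%, against 63.8% and 57.4% of members. The shares over all genes and over members were 36.7% and 48.9% for mouse 11, 43% and 36.2% for mouse 16, and 39.3% and 25.5% for mouse 29.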
